A study of Chlamydomonas reinhardtii with 90 samples.

Results

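HSP90B, BIP1, BIP2, PDI4 and PDI6 encode folding helpers of the endoplasmic reticulum (ER) of the green alga *Chlamydomonas reinhardtii*. Their transcripts were followed through heat at 35°C or 40°C and through recovery at 25°C. The 5 genes were taken by gene ID from the 17741 genes of the count table, as HSP90B (Cre02.g080650), BIP1 (Cre02.g080700), BIP2 (Cre02.g080600), PDI4 (Cre07.g328150) and PDI6 (Cre07.g326600). All 5 passed the filter on low counts with 15541 genes in all, and each had 10 or more reads in all 90 libraries. The lowest count of any of them was 13 reads, for BIP2. The annotation describes BIP1 as an HSP70 protein associated with the ER, PDI4 and PDI6 as protein disulfide isomerases and HSP90B as a heat shock protein, and the place of the proteins in the cell was not measured here.

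The ER receives secreted and membrane proteins as unfolded chains, and chaperones keep these chains soluble until they fold. BiP, the HSP70 of the ER, binds newly entered chains and releases them with ATP. HSP90B is the ER member of the HSP90 family, which acts on later folding steps, and protein disulfide isomerases form and rearrange disulfide bonds. Genes of this set are known in plants, animals and yeast as targets of the unfolded protein response, which is switched on when unfolded chains build up in the ER.

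Wild-type strain CC1690 (21gr, mating type plus) was grown with acetate (TAP medium) under constant light in photobioreactors that held the culture at a constant density. Separate reactors were shifted from 25°C to 35°C (moderate heat) or 40°C (acute heat) for 24 h and then returned to 25°C for 48 h. Each treatment had 15 time points with 3 libraries each: pre-heat, then 0 h (when the high temperature was reached), 0.5, 1, 2, 4, 8, 16 and 24 h of heat, then 0 h (when 25°C was reached), 2, 4, 8, 24 and 48 h of recovery. The 3 libraries of a group are labelled A, B and C, and values below are given in that order. The strain, medium and light were the same in all groups, each time point was compared with the pre-heat libraries of its own treatment, and treatment and reactor cannot be told apart. No library of a culture held at 25°C throughout was analysed here. RNA came from whole cultures, so fewer cells with a transcript and less of it per cell cannot be told apart.

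The libraries held 10872030 to 35917831 counted reads (median 22088535.5). HSP22A, a small heat shock protein, served as the check of heating: its mean level went from 0.397 to 481 TPM at 35°C heat 0.5 h and from 0.636 to 30584 TPM at 40°C heat 0.5 h. TPM is a level per gene length, scaled to the same sum in every library, and the log2 fold changes come from counts with TMM scaling, which sets the bulk of genes to no change. Called means that 3 criteria were met: edgeR adjusted p below 0.05, log2 fold change beyond ±1, and mean TPM at least 1 apart.

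Before heat, the transcripts of HSP90B and BIP1 were abundant and close to each other, those of PDI4 and PDI6 lower, and that of BIP2 the lowest of the 5. HSP90B stood at 82.6, 85.5 and 77.5 TPM in the 35°C set and at 78.7, 75.8 and 88.8 TPM in the 40°C set. BIP1 stood at 89.3, 81.9 and 74.2 TPM and at 85.3, 77.2 and 89.5 TPM. Both were at percentile 95.2 of the genes tested in the 35°C pre-heat libraries, among the higher transcripts of unstressed cells. PDI4 stood at 20.9, 25.1 and 23.8 TPM and at 23.7, 23.9 and 23.8 TPM. PDI6 stood at 6.4, 7.19 and 7.18 TPM and at 6.34, 6.39 and 7.18 TPM. The sets of cultures overlapped for these 4 genes. BIP2 stood at only 0.672, 1.37 and 1.47 TPM in the 35°C set and at 0.994, 4.89 and 2.26 TPM in the 40°C set, where library B was the highest. It was at percentiles 30.7 and 50.9 of the genes tested. Of the 5 genes 0 were called between the 2 pre-heat groups with edgeR and 0 with DESeq2, beside 0.0257% of all genes called lower in the 40°C set and 0% higher. BIP2 alone had an unadjusted p under 0.05, with a log2 difference of 1.27 ± 0.61 (SE) and an edgeR adjusted p of 1.

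**Figure D1:**
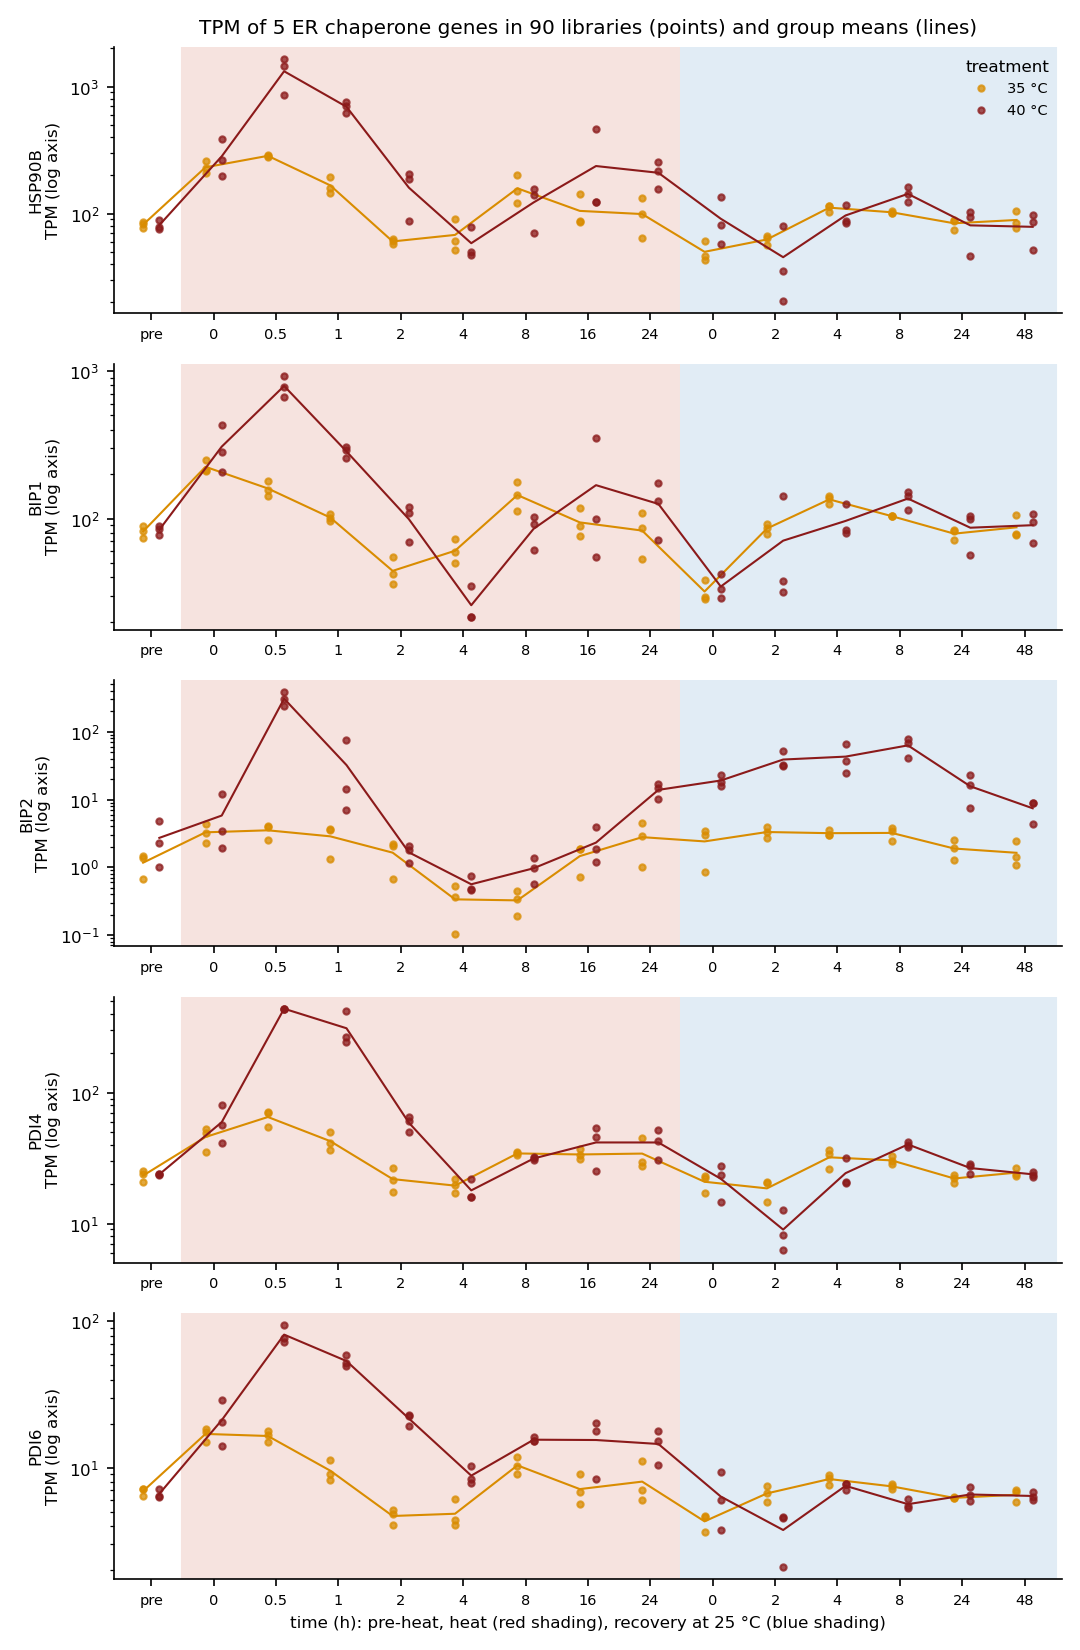
TPM of HSP90B, BIP1, BIP2, PDI4 and PDI6 (one panel each, log axis) at pre-heat, in heat (red shading) and in recovery at 25°C (blue shading); points are single libraries, lines join group means of 3 libraries, orange is 35°C and dark red is 40°C. Every gene has its highest group mean at 40°C heat 0.5 h, from 81.1 TPM for PDI6 to 1322 TPM for HSP90B, and BIP2 lies above all its pre-heat libraries from 0 h to 24 h of 40°C recovery and overlaps with them at 48 h.

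At 35°C the 5 genes rose together and briefly. All 5 were called up when 35°C was reached, beside 3.72% of all genes, and all 5 again at 0.5 h, beside 3.22%. In mean TPM, HSP90B and PDI4 were highest at 0.5 h and BIP1 and PDI6 when 35°C was reached, and by 2 h none of the 5 was called, beside 2.52% of all genes called up. HSP90B, the ER member of the HSP90 family, read 207, 259 and 229 TPM at 0 h and 281, 290 and 284 TPM at 0.5 h. These 6 libraries lay above all 3 pre-heat libraries, as did those of 18.1% and 12.8% of all genes at the 2 times. Its log2 fold changes were 1.68 ± 0.36 (SE) and 2.12 ± 0.37 (edgeR adjusted p = 0.00017 and 3.6e-06). BIP1, the abundant HSP70 of the ER, read 209, 249 and 214 TPM at 0 h and 143, 181 and 155 TPM at 0.5 h. Its mean was lower at 0.5 h than at 0 h, while that of HSP90B was higher. The log2 fold changes of BIP1 were 1.64 ± 0.37 and 1.29 ± 0.37. No step from 0 h to 0.5 h was called for any of the 5 genes, and differences between genes were not tested.

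The isomerases moved with the chaperones at 35°C. PDI4 read 35.0, 53.1 and 49.5 TPM at 0 h and 54.9, 69.9 and 70.8 TPM at 0.5 h, with library A the lowest at both times. Its log2 fold changes were 1.17 ± 0.23 and 1.82 ± 0.24. PDI6, the less abundant isomerase, read 15.1, 18.4 and 17.6 TPM at 0 h, and its log2 fold changes at 0 h and 0.5 h were 1.48 ± 0.24 and 1.58 ± 0.24. No pre-heat library of either gene reached these levels. BIP2, the second BiP gene, stayed scarce: it read 3.22, 4.30 and 2.31 TPM at 0 h and 2.55, 3.98 and 4.01 TPM at 0.5 h. Its log2 fold changes of 1.68 ± 0.61 and 1.93 ± 0.61 were past the threshold (edgeR adjusted p = 0.026 and 0.0093), but each rests on pre-heat library A. Without that library, or at 0 h without library B, the calls were lost, with the log2 fold change no lower than 1.40 at 0 h and 1.65 at 0.5 h. On log2(TPM + 1) with limma, 0 h and 0.5 h lost the calls of BIP2 (0.97 and 1.06), 0 h that of PDI4 (0.93) and 0.5 h that of BIP1 (0.95).

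From 1 h of 35°C fewer of the genes were called. At 1 h HSP90B, BIP2 and PDI4 were still called up (1.48 ± 0.36, 1.76 ± 0.61 and 1.33 ± 0.23 on the log2 scale), beside 2.91% of all genes. BIP1 and PDI6 were at 0.77 ± 0.36 and 0.92 ± 0.23 and were not called. No step from 0.5 h to 1 h was called for any of the 5 with edgeR, and differences between genes were not tested. The BIP2 call at 1 h was lost without pre-heat library A, library B or library C of 1 h, and with limma on log2(TPM + 1) (0.78); PDI4 was then at 0.84 and lost its call as well. A later and smaller rise of HSP90B was called at 8 h, when it read 151, 121 and 202 TPM, all above pre-heat, as in 16.5% of all genes. Its log2 fold change was 1.04 ± 0.36 (edgeR adjusted p = 0.021), beside 2.32% of all genes called up, and the call was lost without pre-heat library C or without library C of 8 h, where the lowest value was 0.90. BIP1, PDI4 and PDI6 were at 0.91, 0.68 and 0.69 at 8 h and were not called, while BIP2 was at -1.72 ± 0.70 (edgeR adjusted p = 0.052), with 0.193, 0.444 and 0.336 TPM. Over the 8 time points of 35°C heat 14 of 40 tests of these genes were called up and 0 of 40 down, where 1.57% to 3.72% and 1.37% to 7.14% of all genes were called. Of the 40 tests 1 was lower at an unadjusted p under 0.05, and DESeq2 called 0 of 40 down.

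At 40°C the same genes rose several times higher, and the peak came at 0.5 h for all 5. BIP2 went from percentile 50.9 to percentile 98.5 of the genes tested, HSP90B reached 1322 TPM on average, and both isomerases rose by a log2 change of over 4. All 5 were called up at 0 h, 0.5 h and 1 h, beside 7%, 15.2% and 12.3% of all genes. When 40°C was reached, HSP90B read 196, 262 and 388 TPM and BIP1 read 205, 282 and 432 TPM. PDI4 read 41.5, 57.1 and 80.0 TPM and PDI6 14, 20.5 and 28.8 TPM. Library C was the highest and library A the lowest for each of them, but all 3 lay above pre-heat, as in 14.1% of all genes. The log2 fold changes of HSP90B, BIP1, PDI4 and PDI6 were 2.27 ± 0.37, 2.35 ± 0.38, 1.80 ± 0.24 and 2.15 ± 0.24 (edgeR adjusted p = 6e-07 or lower). BIP2 read 1.92, 3.40 and 12.1 TPM at this time and overlapped with its pre-heat libraries. Its log2 fold change of 1.63 ± 0.59 rests on library C: without it the value was 0.32 (edgeR adjusted p = 0.721). The call was lost as well without pre-heat library A or C, with library size as the only scaling (1.17) and with limma on log2(TPM + 1) (0.71).

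At 40°C heat 0.5 h HSP90B read 866, 1648 and 1450 TPM, with library A apart from the others, and its mean of 1322 ± 406 TPM (SD, n = 3) was 16.3 times the pre-heat mean. BIP1 read 668, 928 and 772 TPM, a mean 9.39 times the pre-heat one. BIP2 read 385, 301 and 238 TPM, against a highest pre-heat library of 4.89 TPM, a mean 113 times the pre-heat one. No library of the 3 chaperones overlapped with pre-heat, and 20% of all genes had all libraries above. The log2 fold changes were 4.52 ± 0.41 for HSP90B, 3.77 ± 0.40 for BIP1 and 7.44 ± 0.75 for BIP2 (edgeR adjusted p = 1.6e-15, 9.2e-13 and 7.5e-14). These are larger than the TPM ratios give, since the TMM scaling adds 0.49 to 0.61 on the log2 scale at this time. PDI4 read 438, 439 and 440 TPM, the closest agreement of 3 libraries among its groups in heat, and PDI6 read 72.1, 94.2 and 77.0 TPM. The isomerases rose by 4.77 ± 0.27 and 4.15 ± 0.26 on the log2 scale (edgeR adjusted p = 2e-24 and 2.4e-22), so PDI4 stood 18.5 times and PDI6 12.2 times above pre-heat in TPM. Together the 5 transcripts made up 2939 ± 491 TPM (SD, n = 3), against 198 ± 12.0 TPM before heat.

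By 1 h of 40°C the 5 genes were at different distances from their peak. PDI4 read 423, 265 and 245 TPM and PDI6 59.3, 51.8 and 49.5 TPM, still at 3.83 ± 0.26 and 3.15 ± 0.25 on the log2 scale. HSP90B read 621, 754 and 706 TPM (3.26 ± 0.39), while BIP1 had dropped to 257, 306 and 291 TPM (1.92 ± 0.38). BIP2 read 75.2, 14.5 and 6.97 TPM, with library A far above the others, and its log2 fold change was 3.58 ± 0.63. At 2 h HSP90B, PDI4 and PDI6 remained called, at 1.10 ± 0.36, 1.43 ± 0.23 and 1.83 ± 0.24 (beside 9.07% of all genes), while BIP1 was at 0.36 ± 0.36 and BIP2 at -0.60 ± 0.59. The HSP90B call at 2 h was lost without library B or C of that time (lowest value 0.89) and with limma on log2(TPM + 1) (0.88), since library A read 86.8 TPM against 206 and 187 TPM.

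At 4 h of 40°C the BiP genes were called down and the other 3 genes were not called. BIP1 read 34.9, 21.5 and 21.4 TPM, its lowest group mean of all 30 (25.9 ± 7.75 TPM, SD, n = 3), and no library overlapped with pre-heat, as in 40.6% of all genes with all libraries below. It fell by 1.59 on the log2 scale (SE 0.37, edgeR adjusted p = 0.00024), beside 8.38% of all genes called down. BIP2 read 0.454, 0.745 and 0.482 TPM and fell by 2.15 on the log2 scale (SE 0.63). That call was lost without pre-heat library B, which had read 4.89 TPM, when the value was -1.41 (edgeR adjusted p = 0.0717). HSP90B, PDI4 and PDI6 were at -0.37 ± 0.36, -0.30 ± 0.23 and 0.52 ± 0.23 at that time. At 8 h BIP2 was called down again at -1.55 ± 0.61, beside 8.46% of all genes, but the call was lost without pre-heat library B (-0.82), without library A or C of 8 h, in a fit on the 45 libraries of 40°C (-1.47) and with limma on log2(TPM + 1) (-0.80). PDI6 was called up at 8 h with 16.1, 15.2 and 15.3 TPM (1.16 ± 0.23, beside 8.56% of all genes). All its libraries lay above all pre-heat libraries at each of the 8 time points of 40°C heat, and those of PDI4 did so at every time but 4 h, when they lay below. All libraries above pre-heat were seen in 14.1%, 20%, 29.2%, 30.3%, 32.1%, 35.7%, 35.2% and 42.3% of all genes at the 8 times, and all below in 40.6% at 4 h.

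Late in 40°C heat HSP90B was called up at 16 h and 24 h and BIP2 at 24 h, while BIP2 overlapped with pre-heat at 16 h. At 16 h HSP90B was called up (1.34 ± 0.36, beside 11.2% of all genes), but its libraries read 123, 463 and 124 TPM and without library B the value was 0.47 (edgeR adjusted p = 0.258). BIP1 also was high in library B alone at that time, with 99.7, 351 and 54.6 TPM, and was not called. At 24 h HSP90B read 255, 218 and 156 TPM, all above pre-heat as in 42.3% of all genes, with a log2 fold change of 1.20 ± 0.36 (edgeR adjusted p = 0.0029), beside 12.8% of all genes. BIP2 read 10.2, 16.8 and 14.6 TPM, above every pre-heat library, and rose by 2.22 ± 0.60 on the log2 scale (edgeR adjusted p = 0.00098). BIP1, PDI4 and PDI6 were at 0.40 ± 0.36, 0.64 ± 0.23 and 0.96 ± 0.23 and were not called. Over 40°C heat 22 of 40 tests were called up and 3 of 40 down, all 3 of them of BiP genes, where 7% to 15.2% of all genes were called up and 5.26% to 15.3% down.

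**Figure D2:**
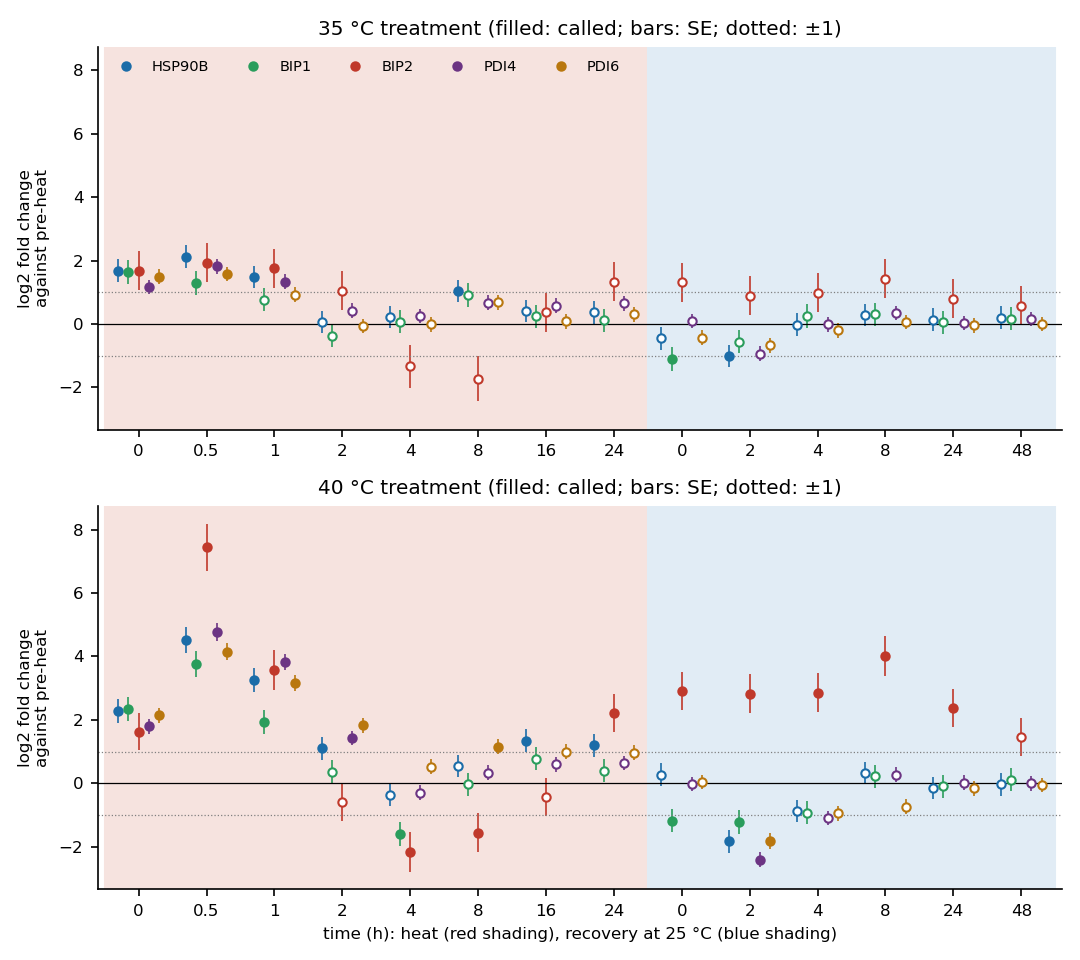
Log2 fold change against pre-heat of the same treatment (edgeR, TMM scaling) for the 5 genes at 14 time points of 35°C (top) and 40°C (bottom), with heat in red shading and recovery in blue; bars are SE, filled points were called, and dotted lines mark ±1. At 40°C all 5 genes are filled and above 1 at 0 h, 0.5 h and 1 h, and in recovery BIP2 lies between 2.38 and 4.02 up to 24 h while the others lie at or below 0.32.

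Return to 25°C after 35°C brought few calls. When 25°C was reached, BIP1 read 29.5, 28.4 and 38.3 TPM, below every pre-heat library as in 41.6% of all genes, and fell by 1.10 on the log2 scale (SE 0.37, edgeR adjusted p = 0.011), beside 6.09% of all genes called down. HSP90B, PDI4 and PDI6 were at -0.45 ± 0.36, 0.10 ± 0.23 and -0.43 ± 0.23. At 2 h HSP90B read 64.7, 66.3 and 56.5 TPM and was called down at -1.01 ± 0.36, beside 5.21% of all genes, just past the threshold of -1. That call was lost without pre-heat library A or B or library C of 2 h, and under 6 alternative scalings or tools, with -0.39 on log2(TPM + 1). BIP1 at that time was at -0.56 ± 0.36 and at 0.07 with limma on log2(TPM + 1), so its direction depended on the scaling. BIP2 was at 0.57 to 1.44 throughout 35°C recovery and was not called with edgeR. At 2, 4 and 8 h its mean TPM was 2.84, 2.73 and 2.75 times that of pre-heat. All its libraries then lay above all pre-heat libraries, as in 64.1%, 55% and 23.2% of all genes. No other test was called: 0 of 30 were called up with edgeR and 0 with DESeq2, and 2 of 30 were higher at an unadjusted p under 0.05. Of all genes 0% to 5% were called up at a time point of 35°C recovery, so so few calls are near that share. At 24 h and 48 h all 5 genes were within 0.80 of pre-heat on the log2 scale.

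Recovery from 40°C split the set in opposite directions. BIP2 was called up from 0 h to 24 h of recovery, while HSP90B, BIP1, PDI4 and PDI6 were all called down at 2 h. BIP2 read 15.8, 23.2 and 18.3 TPM when 25°C was reached, beside 16.4% of all genes called up. It read 31.2, 32.6 and 52.9 TPM at 2 h, 24.4, 37.5 and 67.0 TPM at 4 h and 41.3, 69.3 and 78.2 TPM at 8 h. The lowest of these 12 libraries read 15.8 TPM, against 4.89 TPM in the highest pre-heat library, and library A was the lowest at all 4 times. All libraries above pre-heat were also seen in 32.3%, 69.9%, 78.7% and 54.9% of all genes at these times, so that on the TPM scale this is common in recovery, while 17.5%, 13.8% and 7.18% of all genes were called up at 2, 4 and 8 h. Its log2 fold changes at 0, 2, 4 and 8 h were 2.91 ± 0.61, 2.83 ± 0.61, 2.86 ± 0.61 and 4.02 ± 0.64 (edgeR adjusted p = 5e-05 or lower), so the level at 8 h was next only to the peak in heat. At 24 h it read 7.39, 23.2 and 16.5 TPM and was called at 2.38 ± 0.60, beside 1.09% of all genes; the call was lost without pre-heat library A or C or library B of 24 h (lowest value 1.98, highest edgeR adjusted p = 0.115). At 48 h it read 4.30, 8.96 and 9.0 TPM, overlapped with pre-heat library B, and was at 1.46 ± 0.59 (edgeR adjusted p = 0.68). At that time 0 of the 5 genes were called with edgeR and 0 with DESeq2, beside 0.0193% of all genes called up, and BIP2 alone had an unadjusted p under 0.05.

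The other 4 genes were all called down only at 2 h of 40°C recovery, and none of them was called at 4 h. BIP1 was called down when 25°C was reached, with 33.2, 41.9 and 29 TPM (-1.18 ± 0.37, edgeR adjusted p = 0.0038, beside 12.2% of all genes), while HSP90B, PDI4 and PDI6 were at 0.27, -0.02 and 0.04. At 2 h PDI4 read 6.22, 8.12 and 12.6 TPM, its lowest group mean, and fell by 2.40 on the log2 scale (SE 0.24, edgeR adjusted p = 1.5e-13). PDI6 read 2.10, 4.63 and 4.53 TPM and was at -1.82 ± 0.24. Every library of both isomerases was below pre-heat, beside 11.7% of all genes called down and 14.7% with all libraries below. HSP90B read 20.5, 35.4 and 80.0 TPM (-1.82 ± 0.37), and its library C overlapped with pre-heat. BIP1 read 31.9, 38.0 and 143 TPM (-1.22 ± 0.37). Its library C lay above every pre-heat library (highest 89.5 TPM), against the direction of the call. The BIP1 call was lost without library A or B of that time (-0.86), with library size as the only scaling (-0.81), in the fit on 45 libraries (-1.02) and with limma on log2(TPM + 1) (-0.58), where PDI6 was at -0.73 and not called. By 8 h HSP90B, BIP1 and PDI4 were at 0.32, 0.22 and 0.27 and PDI6 at -0.73 ± 0.23. At 24 h and 48 h none of these 4 was called, and their mean TPM was 0.966 to 1.12 times that of pre-heat.

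The size of the changes in early 40°C recovery depended on the scaling. For the times 2 h and 4 h the TMM scaling gave log2 fold changes 0.98 to 1.01 and 1.12 to 1.13 below the log2 ratio of mean TPM for these 5 genes, and at 35°C recovery 2 h 0.61 to 0.62 below. On log2(TPM + 1) all genes together had a median change of 0.70 at 2 h and 0.77 at 4 h after 40°C, and of 0.41 at 2 h after 35°C. At 40°C recovery 4 h HSP90B, BIP1 and PDI6 were at -0.87, -0.92 and -0.95 with TMM scaling and at 0.24, 0.17 and 0.16 with limma on log2(TPM + 1), so their direction at 4 h turned with the scaling, and all 3 lay below the median of all genes on both scales. PDI4 at 4 h passed the fold and p thresholds (-1.09 ± 0.23, edgeR adjusted p = 5.4e-05), but its mean was 24.3 TPM against 23.8 TPM before heat, so it was not called. The direction of BIP2 in 40°C recovery was upward on every scale tried.

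**Figure D3:**
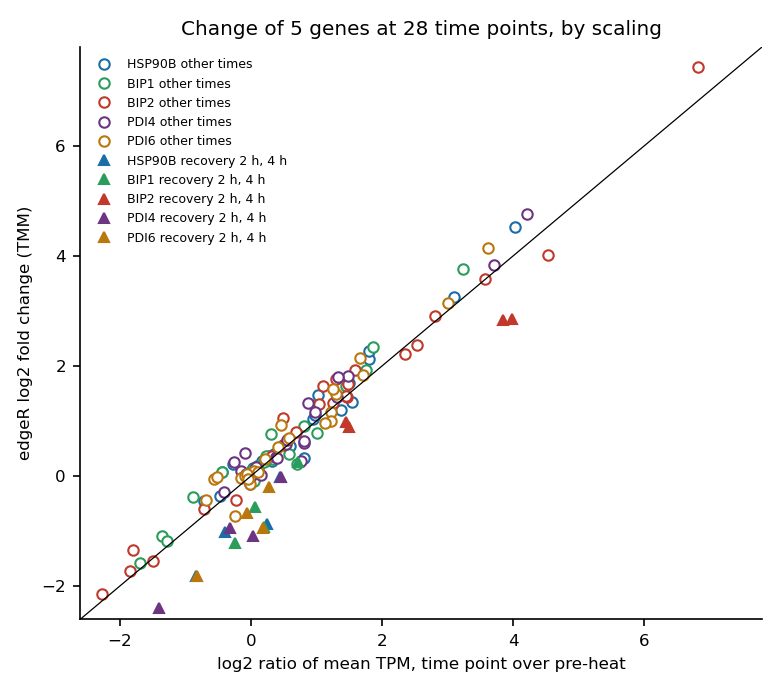
edgeR log2 fold change (TMM scaling, y axis) against the log2 ratio of mean TPM (x axis) for the 5 genes at 28 time points; the line marks equal values and triangles mark recovery 2 h and 4 h of both treatments. The triangles lie below the line, by up to 1.13, and the points of 40°C heat 0.5 h lie above it, by up to 0.61.

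Whether a gene changed more at 40°C than at 35°C was asked at each time point in the same edgeR model (called at an adjusted p below 0.05 and a difference beyond ±1). For the ER chaperones the treatments differed most at 0.5 h of heat, where all 5 genes had the larger change at 40°C, beside 16.2% of all genes. The difference was 5.51 ± 0.87 on the log2 scale for BIP2, 2.40 ± 0.51 for HSP90B and 2.47 ± 0.52 for BIP1. It was 2.95 ± 0.33 for PDI4 and 2.58 ± 0.33 for PDI6 (edgeR adjusted p of the 5 between 4.4e-11 and 7.8e-05). When the high temperature was reached, 0 of the 5 differed between treatments with edgeR and 0 with DESeq2 (1 at an unadjusted p under 0.05), beside 2.9% of all genes with a larger change at 40°C. The differences ran from -0.05 ± 0.83 for BIP2 to 0.71 ± 0.51 for BIP1, which leaves room for a larger rise at 40°C.

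At later times fewer genes differed between treatments. At 1 h the difference was 2.49 ± 0.33 for PDI4, 2.23 ± 0.33 for PDI6 and 1.78 ± 0.51 for HSP90B, beside 11.3% of all genes. BIP2 and BIP1 were at 1.82 ± 0.84 and 1.15 ± 0.51 and were not called. At 2 h PDI6 differed by 1.89 ± 0.33 and PDI4 by 1.01 ± 0.33, beside 10.4% of all genes; the latter was lost without any of 5 libraries (lowest 0.84), with DESeq2 size factors (0.95) and with no low-count filter (0.99). At 4 h BIP1 was the only one called, and lower at 40°C by 1.66 on the log2 scale (SE 0.52, edgeR adjusted p = 0.013, beside 4.39% of all genes). In recovery the isomerases were lower after 40°C at 2 h, with differences of -1.46 ± 0.33 for PDI4 and -1.15 ± 0.33 for PDI6 (beside 13.7%), and PDI4 was at -1.08 ± 0.33 at 4 h (beside 6.98%). PDI6 at 2 h was lost without library A of 40°C recovery 2 h (-0.82) and with library size as the only scaling (-0.99), PDI4 at 4 h without any of 3 libraries (-0.94) and with library size (-0.75), and both with limma on log2(TPM + 1) (-0.68 and -0.44).

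BIP2 in recovery differed between treatments by 1.60 ± 0.84, 1.94 ± 0.84, 1.87 ± 0.84 and 2.58 ± 0.84 at 0, 2, 4 and 8 h. The difference at 8 h was past the threshold (edgeR adjusted p = 0.023, beside 7.56% of all genes), and it was lost without any of 6 libraries, 4 of them pre-heat ones (highest edgeR adjusted p = 0.0808). In mean TPM, BIP2 was 62.9 ± 19.3 after 40°C and 3.21 ± 0.705 after 35°C at 8 h (SD, n = 3). The test is on changes from pre-heat, and the pre-heat level of BIP2 was higher in the 40°C set by 1.27 ± 0.61. At 24 h and 48 h of recovery 0 of 10 differences were called with edgeR (0.0901% and 0% of all genes higher at 40°C), 0 with DESeq2 and 0 had an unadjusted p under 0.05.

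Comparing each time point with the one before shows where the genes turned. At 35°C 5 of 70 steps were called up, all of them from pre-heat to 0 h (beside 3.72% of all genes), and 5 down. The falls were those of HSP90B and BIP1 from 1 h to 2 h (-1.42 ± 0.36 and -1.15 ± 0.37, beside 1.09%), BIP2 from 2 h to 4 h (-2.38 ± 0.68, beside 0.18%), BIP1 into recovery (-1.21 ± 0.37, beside 3.04%) and PDI4 from 0 h to 2 h of recovery (-1.04 ± 0.23, beside 7.41%). At 40°C 16 of 70 steps were called up and 17 down, where 0.0257% to 14.5% of all genes rose and 0.103% to 13.6% fell per step. All 5 genes rose in both of the first steps, from pre-heat to 0 h and from 0 h to 0.5 h (beside 7% and 9.6% of all genes), and BIP2 made most of its rise in the later one, with 1.63 ± 0.59 and then 5.81 ± 0.69. HSP90B, BIP1 and BIP2 fell from 0.5 h to 1 h (-1.26 ± 0.36, -1.84 ± 0.37 and -3.86 ± 0.63, beside 7.37%), when PDI4 and PDI6 were at -0.94 ± 0.23 and -1.0 ± 0.23 and were not called. All 5 fell from 1 h to 2 h (beside 3.34%), by 1.33 on the log2 scale for PDI6 and up to 4.18 for BIP2. From 2 h to 4 h HSP90B, BIP1, PDI4 and PDI6 fell further (-1.47, -1.95, -1.73 and -1.30, beside 3.36%), and BIP1 rose from 4 h to 8 h (1.56, beside 1.08%). BIP2 rose again from 16 h to 24 h of 40°C, before the return to 25°C, by 2.66 ± 0.61 (edgeR adjusted p = 0.008, beside 0.669%). No step of BIP2 from there to 8 h of recovery was called. BIP1 fell on the return to 25°C (-1.58, beside 9.08%), HSP90B, PDI4 and PDI6 fell from 0 h to 2 h of recovery (-2.10, -2.39 and -1.86, beside 13.6%), and PDI4 rose from 2 h to 4 h (1.31, beside 6.86%). From 4 h to 8 h of recovery HSP90B, BIP1 and PDI4 rose by 1.19 ± 0.36, 1.14 ± 0.37 and 1.36 ± 0.23 (beside 9.16%), and from 8 h to 24 h BIP2 fell by 1.64 on the log2 scale (SE 0.58, beside 3.54%).

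The balance of the BiP genes was followed within each library, as the share of BIP2 in the sum of BIP1 and BIP2 TPM. BIP2 made up 0.747%, 1.64% and 1.94% of BiP transcripts in the 35°C pre-heat libraries and 1.15%, 5.95% and 2.46% in the 40°C ones. At 40°C heat 0.5 h the share was 36.6%, 24.5% and 23.6%, and when 25°C was reached after 40°C it was 32.2%, 35.6% and 38.6%. It was highest at 2 h of recovery, with 49.5%, 46.2% and 27.0%, so BIP2 and BIP1 were then about equally abundant in libraries A and B. These shares did not overlap with pre-heat. Between the heat peak and 24 h the share was back near its start, with 1.28%, 3.36% and 2.2% at 4 h, and at 24 h of 40°C it was 5.54%, 11.3% and 17.1%. In 35°C heat it was lowest at 8 h, with 0.133%, 0.395% and 0.190%, and in 35°C recovery it stood between 1.35% and 10.6%.

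As a log2 ratio of BIP1 to BIP2 the mean was 5.24 ± 1.22 (SD, n = 3) before 40°C heat, 1.37 ± 0.50 at 0.5 h, 0.56 ± 0.76 at 2 h of recovery and 3.66 ± 0.29 at 48 h of recovery. In an exact two-sided permutation test against pre-heat, p was 0.1 at 40°C heat 0.5 h and at all 6 times of 40°C recovery, which is the smallest p that 3 against 3 allows. With Benjamini-Hochberg adjustment over the 28 such tests it was 0.215, so the design could not call any of them. At 35°C p was 0.1 at 4 h and 8 h of heat, where the ratio was higher than before heat, and at 0, 2, 4 and 8 h of recovery, where it was lower. Leaving out one letter at a time, the difference from pre-heat ranged from -4.62 to -2.98 at 40°C heat 0.5 h and from -5.13 to -3.82 at 2 h of recovery. The authors counted only reads with a single place in the genome, so reads that fit both BiP genes are not in these counts, and the share rests on the reads that tell them apart.

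**Figure D4:**
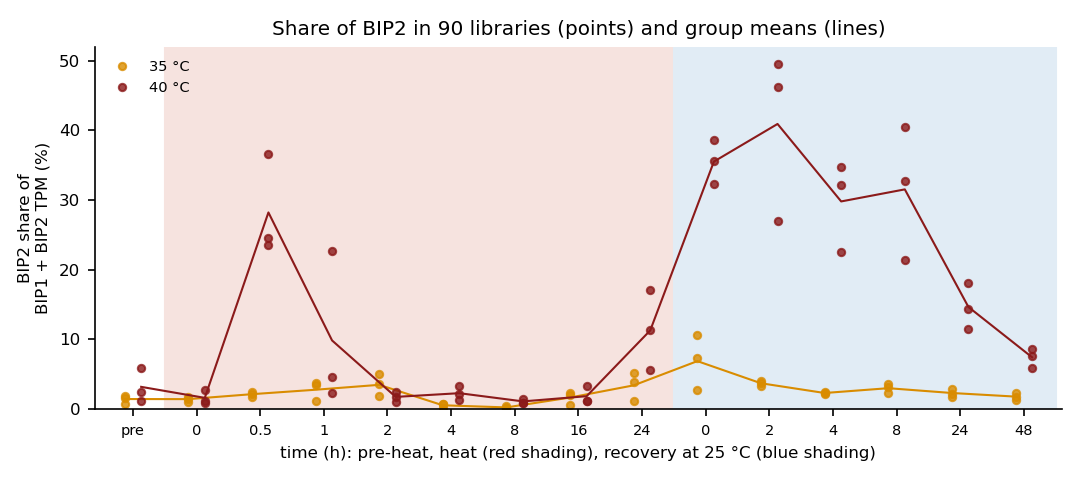
Share of BIP2 in the sum of BIP1 and BIP2 TPM (%, linear axis from 0) in each library (points) with group means (lines), at 35°C (orange) and 40°C (dark red), from pre-heat through heat (red shading) and recovery at 25°C (blue shading). At 40°C the mean rises to 28.2% at 0.5 h, is back at 1.75% at 2 h and reaches 40.9% at 2 h of recovery, and at 35°C no library passes 10.6%.

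Over the 30 groups the means of HSP90B ran from 45.3 to 1322 TPM (29.2-fold), of BIP1 from 25.9 to 789 TPM (30.4-fold) and of BIP2 from 0.324 to 308 TPM (950-fold). Those of PDI4 ran from 8.99 to 439 TPM (48.8-fold) and of PDI6 from 3.75 to 81.1 TPM (21.6-fold). The lowest BIP2 group held only 23 to 50 reads per library, so the fold range of BIP2 rests on few reads. Ordered by mean, 40°C heat 0.5 h came first for all 5 and its libraries did not overlap with those of the next group. The order came from these same libraries, and the share of all genes with such a gap was not counted. HSP90B, PDI4 and PDI6 had 40°C heat 1 h next, also apart from the group below it, while most other neighbours in the order overlapped: 27 of 29 pairs for HSP90B, BIP1 and BIP2, 25 for PDI4 and 26 for PDI6. The lowest group was 40°C recovery 2 h for HSP90B, PDI4 and PDI6, 40°C heat 4 h for BIP1 and 35°C heat 8 h for BIP2. Library A was the lowest of its group for BIP2 in 11 of 15 groups at 35°C and 12 of 15 at 40°C, and for PDI4 in 11 of 15 at 35°C, while for BIP1 at 35°C library C was the lowest in 8 of 15.

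Across the 30 group means of log2(TPM + 1), HSP90B ran closest to PDI4 (Pearson r 0.956) and PDI6 (0.940), and to BIP1 at 0.889. BIP2 stood apart from the other 4, with r of 0.366 to 0.476, although all 5 share the peak at 40°C heat 0.5 h that weighs in every one of these values. These are descriptions over groups that share libraries, cultures and depth. Of the 6128 genes tested with a mean of 5 TPM or more, the 5 most like HSP90B in pattern were Cre02.g098800 (0.963), PDI4, HOP (0.941), which links HSP70 and HSP90 in the cytosol, PDI6 and Cre03.g199300 (0.931). Those most like BIP1 were HSP70B of the chloroplast (0.932), HSP70A of the cytosol (0.929), CRT2, a calreticulin that binds calcium in the ER (0.928), Cre12.g510000 (0.905) and HSP90C of the chloroplast (0.902). Those most like PDI4 were Cre02.g098800 (0.961), Cre04.g216100 (0.961), HSP90B and the chaperonin genes CPN23 (0.953) and CPN11 (0.947). Those most like PDI6 were CYN20-5 (0.976), HOP (0.973), FKB62 (0.964), Cre02.g098800 (0.963) and CGE1 (0.959), the nucleotide exchange factor of chloroplast HSP70. BIP2 had no gene as close: its nearest were Cre01.g004900 (0.886), Cre03.g202897 (0.884), Cre12.g524700 (0.868), HSP22E (0.857), a small heat shock protein of the chloroplast, and FAP280 (0.856). With ranks (Spearman) 0 of these 5 and with TMM-scaled counts 1 of them were again among its 5 nearest.

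The HSP90, HSP70 and PDI families show which relatives rose with the ER members. All 3 HSP90 genes were called up at 40°C heat 0.5 h, beside 15.2% of all genes. HSP90A of the cytosol rose by 4.46 ± 0.48 and HSP90C of the chloroplast by 4.82 ± 0.50 on the log2 scale, beside 4.52 ± 0.41 for HSP90B. In mean TPM they reached 3727 ± 988, 644 ± 204 and 1322 ± 406. At 35°C heat 0.5 h HSP90C and HSP90B were called up (1.48 and 2.12), beside 3.22% of all genes, and HSP90A was at 1.00 and not called. Of 10 HSP70 genes 7 were called up at 40°C heat 0.5 h, beside 15.2% of all genes. The largest rises were those of BIP2, HSP70A (3.79 ± 0.46) and BIP1. HSP70D was called down (-1.59), beside 15.3% of all genes. The median of the 10 was 3.37, beside 0.01 for all genes. At 40°C recovery 2 h BIP2 was the only HSP70 gene called up, beside 17.5% of all genes. The 3 called down, beside 11.7% of all genes, were HSP70H (-3.89 ± 0.44), HSP70B (-1.05) and BIP1.

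Of 9 PDI family genes 8 were tested, and one, Cre16.g656551, did not pass the filter. PDI4, PDI6, DNJ3, a DnaJ-like gene that is also on the list of ER partners, and PDI2 were called up at 40°C heat 0.5 h, beside 15.2% of all genes. DNJ3 rose by 4.82 ± 0.34 and PDI2, named after its values were seen, by 1.75 ± 0.12 on the log2 scale. The remaining 4 of the 8 were not called then, and the median of the 8 was 1.32. The change at that time was larger at 40°C than at 35°C in 6 of the 8, beside 16.2% of all genes, with a median difference of 1.51. PDI3 was called down at 40°C heat 1 h (-1.13) and PDI1 at 2 h (-1.50) and 4 h (-1.05), beside 13.4%, 10.7% and 8.38% of all genes.

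ER folding partners of the 5 genes were a list of 12, most of which sit in the transcript module that the study formed from these same samples, so its direction in heat is no independent evidence. At 35°C heat 0 h 6 of 12 were called up (median 0.94), beside 3.72% of all genes. In front were DNJ3 (2.41), SDF2-like (1.27), known in Arabidopsis as a partner of BiP, and DNJ8 (1.13), a DnaJ gene by its name. At 40°C heat 0 h 10 were called up (median 1.44) and at 0.5 h 11 of 12 (median 3.10), beside 7% and 15.2% of all genes. The median of all genes at 0.5 h was 0.01. The largest rises at 0.5 h were DNJ3, UGGT-like (3.93 ± 0.26), named for the enzyme that marks unfolded glycoproteins, and HSP70G (3.56 ± 0.25). DNJ3 went from 3.11 ± 0.0746 to 55.9 ± 24.2 TPM, UGGT-like from 1.77 ± 0.143 to 18.0 ± 3.77 TPM and HSP70G from 21.5 ± 1.22 to 169 ± 18.2 TPM. The exception was SEC63, a part of the protein entry channel named after its values were seen, at -0.18. UGGT-like was at 0.04 at 35°C heat 0 h, and its change at 0.5 h was larger at 40°C than at 35°C by 3.77. The difference between treatments was called for 11 of 12 partners at 0.5 h (median 2.41, beside 0.01 for all genes) and for 1 of 12 at 0 h. All were larger at 40°C, as called for 16.2% and 2.9% of all genes.

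At 40°C recovery 2 h, beside 17.5% of all genes called up and 11.7% down, 0 of 12 partners were called up and SDF2-like (-2.46 ± 0.20) and CRT2 (-1.10) were called down, with a median of -0.52. When 25°C was reached DNJ8 was the one called, and down (-1.37), beside 12.2% of all genes. None of the 12 was called with edgeR at 8 h, 24 h or 48 h of 40°C recovery, where 7.18%, 1.09% and 0.0193% of all genes were called up and 3.02% down at 8 h, and BIP2 was called at the first 2 of these times.

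BIP2, HSP90B and BIP1 have consecutive IDs on chromosome 2, and in RefSeq genes of assembly v5.5, an earlier version than the one the authors mapped to, 0 genes lie between BIP2 and HSP90B and 0 between HSP90B and BIP1. PDI4 and PDI6 lie on chromosome 7. The 5 gene IDs before and the 5 after the chromosome 2 group were followed as its neighbours, and whether they shared its course was not tested. At 40°C heat 0.5 h 0 of these 10 neighbours were called up, beside 15.2% of all genes, and Cre02.g080500 was called down (-2.10). Cre02.g080750, the ID next to BIP1, was the only neighbour called up in heat, by 1.12 at 0.5 h and 1.19 at 1 h of 35°C, and it was at -0.04 at 40°C heat 0.5 h. At 40°C recovery 2 h 3 neighbours were called up, Cre02.g080550 next to BIP2 by 2.29, and 2 down, beside 17.5% and 11.7% of all genes. Over the 28 comparisons the 10 neighbours gave 27 calls, and those of Cre02.g080500 were all down, where the share of all genes called in a comparison ran up to 17.5% up and 15.3% down.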

How the data were processed

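RNA-seq of *Chlamydomonas reinhardtii* CC1690 comprised 90 libraries in 30 groups of 3. The authors cleaned the paired-end reads (BBDuk, BBMap, FastQC), aligned them by STAR to version v5.6 of the genome, where a read had to have 1 locus and no more than 1 mismatch, and counted by HTSeq, with versions not given in the sources used here. Of the deposited tables one holds the authors' raw read counts for 17741 genes and the other, also deposited, holds TPM values that the authors computed per library. Each column was tied to its sample through the label.

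Genes with 10 or more reads in 9 or more libraries (10%) were kept, 15541 in all. Counts were tested in R 4.3.3 with edgeR 4.0.16: TMM factors (0.509 to 1.423), 30 group means fitted to the 90 libraries together and a quasi-likelihood F-test, with Benjamini-Hochberg adjustment over all genes tested. Calls used an adjusted p below 0.05, a log2 fold change beyond ±1 and mean TPM at least 1 apart, the thresholds of the study, whose mixed-effect model could not be rebuilt because its random effect is not given. The SE is the log2 fold change divided by the root of F. The labels give the 3 libraries of a time point as biological replicates, and p-values measure the spread between them. The lowest count was that of BIP2, at 13 reads or more per library. Its 40°C pre-heat libraries held 121 to 559 reads and differed 4.92-fold in TPM. What limits its precision was not tested.

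The 5 genes and the lists were chosen with earlier results of these data known. Genes named are the 5, list members among the 3 largest rises or falls of a comparison, the 5 genes most like each, and HSP22A. Alternatives were DESeq2 1.42.0 and its size factors, library size alone, no low-count filter, no TPM criterion, the 45 libraries of a treatment, a replicate block, limma 3.58.1 on log2(TPM + 1) and log2(TPM + 0.1), and leaving out each library. Fits without a library kept the trended dispersion of the full fit. The edgeR test was tested on simulated data. Gene IDs were looked up in RefSeq genes of assembly v5.5, where 17738 of 17741 matched. No sequences are shown.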

Additional observations from a re-analysis of the deposited data

Results flagged for a closer look

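The change of an ER chaperone gene at 40°C differed from its change at 35°C in 15 tests of the difference itself (edgeR adjusted p below 0.05, log2 difference beyond ±1). At 0.5 h of heat the differences were 5.51 for BIP2, 2.95 for PDI4, 2.58 for PDI6, 2.47 for BIP1 and 2.40 for HSP90B, all higher at 40°C. At 1 h they were 2.49 for PDI4, 2.23 for PDI6 and 1.78 for HSP90B, and at 2 h 1.89 for PDI6 and 1.01 for PDI4. At 4 h BIP1 was lower at 40°C, at -1.66. In recovery PDI4 was at -1.46 and PDI6 at -1.15 at 2 h, PDI4 at -1.08 at 4 h and BIP2 at 2.58 at 8 h. Of these 15, 4 were lost when 1 library was left out: PDI4 at 2 h of heat, PDI6 at 2 h of recovery, PDI4 at 4 h of recovery and BIP2 at 8 h of recovery.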

How the results depend on the processing

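Of 66 calls of the 5 genes, 0 reversed under any alternative. The call was kept in 64 with DESeq2 size factors in edgeR, 64 with the DESeq2 test, 61 with library size alone, 65 with no low-count filter, 66 with no TPM criterion, 48 of 51 in fits on 45 libraries, 51 with limma on log2(TPM + 1), 53 on log2(TPM + 0.1) and 50 when each library was left out. Fits on 45 libraries give no difference between treatments. Calls up in 35°C heat were 14, and 7 and 9 with limma on log2(TPM + 1) and log2(TPM + 0.1). Calls up in 35°C recovery were 0, and 1 with 45 libraries, 1 and 2 with limma. Calls down in 35°C recovery were 2, and 1 with DESeq2 size factors, library size alone, 45 libraries, both limma fits and DESeq2. Calls down in 40°C recovery were 5, and 3 with both limma fits. Recovery differences higher at 40°C were 1, and 3 with library size alone, 4 with both limma fits and 2 with DESeq2; those lower were 3, and 1 with library size alone and both limma fits. Neighbour calls were 27, and 52 with no TPM criterion and 49 with limma on log2(TPM + 0.1). Of the 5 genes most like each, Spearman shared 2 for HSP90B, 1 for BIP1, 0 for BIP2, 2 for PDI4 and 2 for PDI6, and TMM-scaled counts 3 for BIP1 and 1 for BIP2.

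With 1 library left out, calls down in 35°C heat ranged from 0 to 1, up in 35°C recovery 0 to 1, down in 35°C recovery 1 to 3, down in 40°C heat 1 to 3, down in 40°C recovery 4 to 8, and recovery differences 0 to 4 higher and 2 to 5 lower. Calls up ranged from 11 to 15 in 35°C heat, 21 to 24 in 40°C heat and 4 to 5 in 40°C recovery.

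All 3 letters deviated together (correlation over 0.1) in 8 of 28 comparisons, with correlations of -0.106 to 0.448, which did not meet the criterion for pairing, and the labels do not say whether a letter marks one culture over time. Most correlations were above 0. With the letter as a replicate block 0 of the 66 calls were lost, and recovery differences higher at 40°C were 3.

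The change of the log2 BIP1 to BIP2 ratio without one letter ranged from -4.62 to -2.98 at 40°C heat 0.5 h, from -5.13 to -3.82 at recovery 2 h and from -2.18 to -1.15 at recovery 48 h.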
